A study of Mus musculus with 4 samples.

Results

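The genes that identify type 1 conventional dendritic cells (cDC1) were followed in dendritic cells (DC) of the mouse spleen after exposure to TCDD, a dioxin that binds the aryl hydrocarbon receptor (AhR). They are the 10 genes Xcr1, Clec9a, Cd8a, Itgae, Batf3, Irf8, Cd24a, Ly75, Tlr3 and Naaa, taken as markers and factors of this subset. All probe sets annotated to 1 of these symbols were used. That gave 15 of the 22626 probe sets tested, for 9 of the 10 genes. No probe set of the table is annotated to Clec9a, so its expression is not analysed here. Of the other 9 genes, 4 had 1 probe set and 5 had more, and 0 of the 15 probe sets were shared with another gene.

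The groups were female C57BL/6 mice aged 8 to 12 weeks that received 10 µg/kg TCDD, or the DMSO solvent alone, by injection into the peritoneum, in both groups in corn oil. After 24 h the spleens of 3 mice per group were pooled, and DC were enriched by density and sorted with magnetic beads, with a stated purity above 90%. Amplified RNA was hybridised to 2 Affymetrix arrays of the TCDD group and 2 of the DMSO group, labelled as biological replicates 1 and 2. The sources used here do not say whether the arrays of a group came from separate pools of mice, so the p-values measure only the spread between these arrays, which may be technical. The sort was for DC as a whole and not for cDC1, so every value is a mean over all DC subsets and over the other cells that passed the sort. In such a bulk sample, fewer cDC1 and less RNA per cDC1 cannot be told apart.

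As background, cDC1 are the DC subset best known for cross-presentation, the display of peptides from engulfed material on MHC class I to CD8 T cells. Their development depends on the transcription factors IRF8 and BATF3. In the mouse spleen they carry CD8 alpha homodimers, CD24, CD103 and the endocytic receptor DEC-205. They sense double-stranded RNA through TLR3, take up dead cells with the help of CLEC9A, and answer the chemokine XCL1 through the receptor XCR1.

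One array stood apart before any comparison. In TCDD replicate 1 the 3′ probe set of the Gapdh control exceeded the middle one by 3.6 (log2), while TCDD replicate 2 gave 2.0 and the DMSO arrays 1.5 and 2.1. For beta-actin this gap was 4.0 in TCDD replicate 1, 2.0 in TCDD replicate 2, and 1.9 and 2.1 in the DMSO arrays. From the 3′ to the 5′ probe set the array stood out less, with 5.4 for Gapdh, 4.7 in TCDD replicate 2 and 4.1 and 4.9 in the DMSO arrays, and 4.4 for beta-actin, 3.3 in TCDD replicate 2 and 4.0 and 3.7 in the DMSO arrays. The neutrophil marker S100a8 lay at 10.3 in TCDD replicate 1 but 5.6 in TCDD replicate 2, against 6.4 and 5.9 in the DMSO arrays, and S100a9 at 9.6 and 5.3, against 6.4 and 5.6. Camp, another neutrophil gene, was higher in both TCDD arrays, at 6.9 and 6.5, against 5.6 and 5.1 in the DMSO arrays, and 3 of 10 neutrophil probe sets lay higher without overlap, as did 19% of all. The part of either in the results below was not tested.

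Most cDC1 probe sets gave signal above the dim range, while the narrowest marker, Xcr1, was dim. A probe set is called dim here where its mean over the arrays was under 5.53, the value that 40% of all probe sets fell short of; 12 of the 15, for 7 genes, were not dim. The dim ones were those of Xcr1 and Ly75 and 1 of the 2 of Tlr3.

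The cDC1 genes lay mostly below their DMSO values in the TCDD arrays, and none passed the test. Each difference is the TCDD mean minus the DMSO mean of the deposited log2 values, fitted with limma over all probe sets, with the moderated standard error (SE) and 2 arrays per group. The difference was below 0 in 15 of 15 probe sets, from -1.45 for Naaa to -0.05 for Xcr1, although an Irf8 probe set lay above 0 after quantile normalization or cyclic loess and a Cd24a probe set at 0 after quantile normalization. Limma called 0 of the 15, with adjusted p-values of 0.349 to 0.876, and 0 of all 22626 probe sets (0%). At an unadjusted p under 0.05 there were 5 of the 15, all lower, in 4 genes, where 13.1% of all probe sets reached this value and 6.7% did so on the lower side. By mean level, 2 of 4 at 6 to 8 and 3 of 7 at 8 to 10 did, beside 15.2% and 17.4% of all in these bands. Quantile normalization left 2 of the 15, beside 9.22% of all, and cyclic loess and median centring 4 each, beside 8.66% and 12.3%. Without moderation the count of calls was 0 as well.

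In 7 of the 15 probe sets both TCDD arrays lay below both DMSO arrays, which held for 18.4% of all probe sets. In 0 of the 15 both lay above, against 19% of all. The 7 came from 5 genes: Naaa and Cd24a with 2 probe sets each, and Cd8a, Itgae and Tlr3 with 1 each. Separate groups with a difference of 2-fold or more were found for 2 of the 15, 1 of Naaa and 1 of Tlr3, and for 2.35% of all on the lower side. Probe sets of 1 gene share their transcript, so these counts are not over independent items.

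The median difference of the 15 probe sets was -0.55, beside a median of 0.00 over all probe sets. Bright probe sets lay lower in the TCDD arrays in general, however, and most cDC1 probe sets were bright. At a mean level of 8 to 10 the median of all 2487 probe sets was -0.35 and that of the 7 cDC1 probe sets -0.60; 4 of these 7 lay lower without overlap, against 38.6% of all in that band. At 6 to 8 the median was -0.10 for all 7826 and -0.35 for the 4 cDC1 probe sets, with 2 of 4 lower without overlap, against 22.9%. Quantile normalization brought the median of the 15 to -0.24 and cyclic loess to -0.27, and 6 and 7 of them then lay lower without overlap, beside 16.5% and 22.6% of all probe sets. The median of all probe sets moved by no more than 0.05 under either of these or under median centring.

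**Figure D1:**
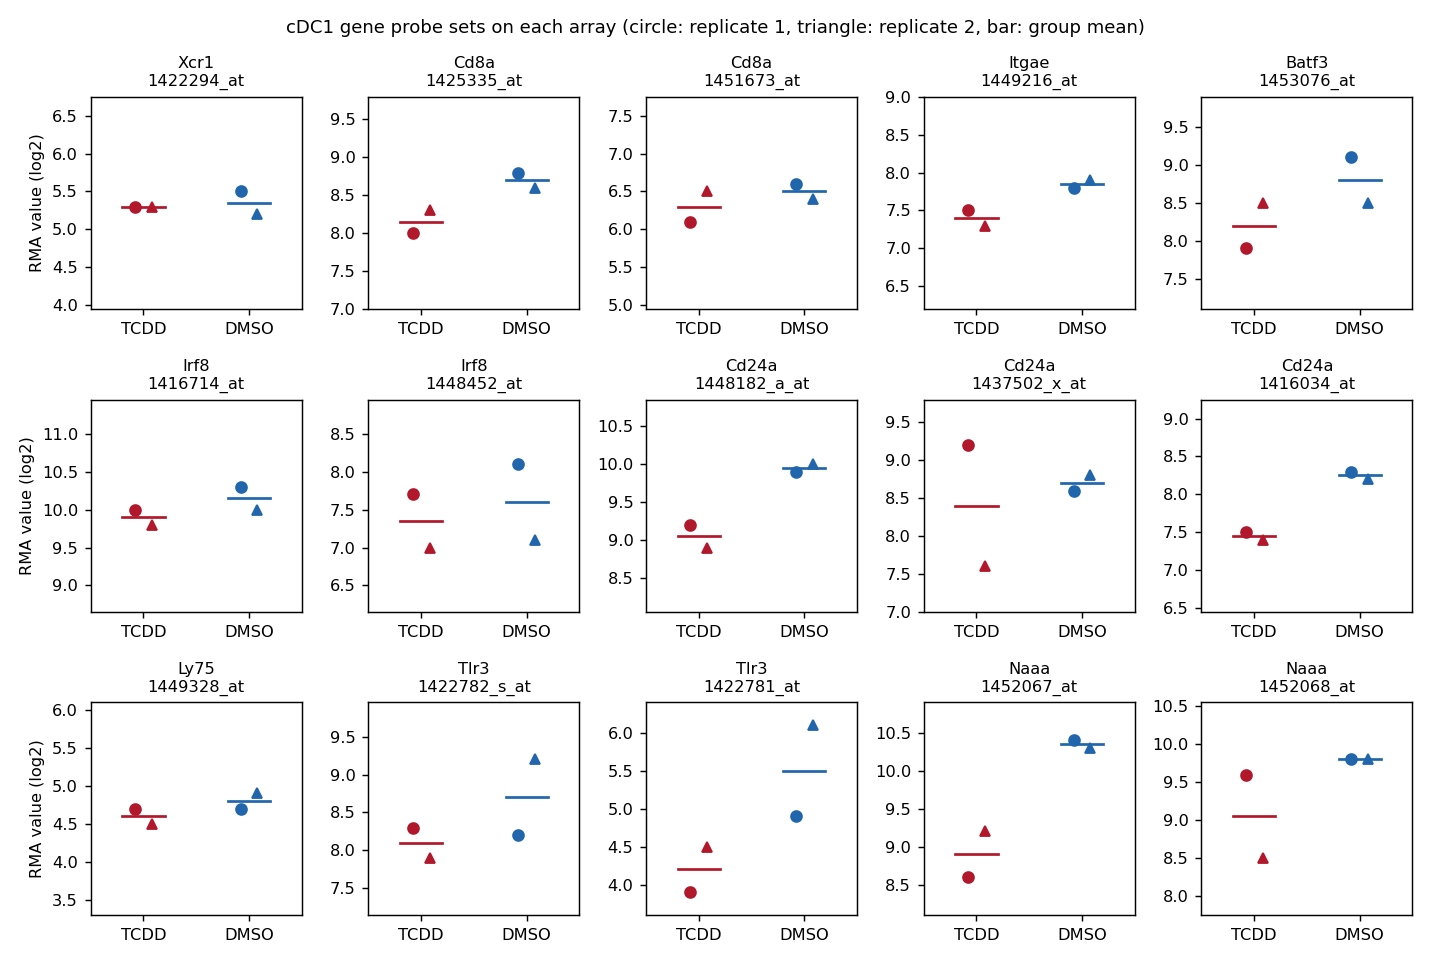
RMA values (log2, vertical axis) of the 15 cDC1 probe sets, TCDD arrays left and DMSO arrays right; circles are replicate 1, triangles replicate 2 and bars the group means, and every panel spans the same height. The first Naaa panel, the first and last Cd24a panels, Itgae and the first Cd8a panel show both TCDD arrays clear below both DMSO arrays, while Xcr1, Ly75, Batf3 and both Irf8 panels overlap or touch.

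The promoters of these genes were searched for the core of the AhR response element, GCGTG, since TCDD acts through this receptor. The AP-1 site TGANTCA, of the kind that BATF-family dimers bind, and the IRF element, a pair of GAAA repeats with 2 bases of any kind between them, were searched too, all on both strands. RefSeq (GRCm38.p6) gave 9 promoters for 8 of the 10 genes, Clec9a included, each from 250 bases before to 50 after the transcription start. The core was present in 4 of the 9 promoters (44.4%), those of Cd8a, Ly75, Xcr1 and 1 of the 2 of Irf8, where 32.4% of all 32851 promoters held it. The AP-1 site was found in 0 of the 9 (7.81% of all) and the IRF element in 0 of the 9 (3.44% of all), so no motifs overlapped. These matches are a description of letters in this window and not of binding. Below, Naaa is shown as the gene of largest difference, without the core, Cd8a as a gene lower on 1 of 2 probe sets, with it, and Irf8 as a factor of the subset, with it. The Naaa promoter is at chr5:92278132-92278431, minus strand, that of Cd8a at chr6:71373177-71373476, plus strand, and that of Irf8 at chr8:120736108-120736407, plus strand. Capitals mark the core, read as GCGTG or, on the other strand, CACGC.
Naaa: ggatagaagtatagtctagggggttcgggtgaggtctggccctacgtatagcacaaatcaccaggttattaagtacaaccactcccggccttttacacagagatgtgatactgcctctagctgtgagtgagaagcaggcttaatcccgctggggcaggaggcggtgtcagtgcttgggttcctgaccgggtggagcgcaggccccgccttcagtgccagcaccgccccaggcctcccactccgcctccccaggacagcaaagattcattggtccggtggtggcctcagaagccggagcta
Cd8a: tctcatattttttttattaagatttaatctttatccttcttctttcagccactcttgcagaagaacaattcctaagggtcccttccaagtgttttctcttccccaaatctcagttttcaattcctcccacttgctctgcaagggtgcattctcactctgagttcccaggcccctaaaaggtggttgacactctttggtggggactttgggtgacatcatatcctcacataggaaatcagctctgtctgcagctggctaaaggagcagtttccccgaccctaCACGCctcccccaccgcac
Irf8: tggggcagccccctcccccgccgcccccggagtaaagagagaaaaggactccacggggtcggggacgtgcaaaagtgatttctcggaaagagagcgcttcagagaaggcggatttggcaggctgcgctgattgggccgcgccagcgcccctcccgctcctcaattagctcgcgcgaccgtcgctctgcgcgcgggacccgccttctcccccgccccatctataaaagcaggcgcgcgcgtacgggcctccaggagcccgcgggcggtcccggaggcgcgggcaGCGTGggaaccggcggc

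Of the 2 transcription factors, Batf3 had the larger difference and neither was separated from its DMSO values on every array. Batf3, the AP-1 family factor needed for the subset, lay at 7.9 and 8.5 in the TCDD arrays, against 9.1 and 8.5 in the DMSO arrays. TCDD replicate 2 thus equalled DMSO replicate 2, and the difference of -0.60 (SE 0.35, 95% interval -1.71 to 0.51) equalled the gap of 0.6 within each group. It stood at -0.24 after quantile normalization, -0.31 after cyclic loess and -0.30 without DMSO replicate 1. Irf8, the interferon regulatory factor that cDC1 and plasmacytoid DC both need, lay at 10.0 and 9.8 in the TCDD arrays and at 10.3 and 10.0 in the DMSO arrays on the brighter of its probe sets, which differed by -0.25 (SE 0.159). Its other probe set lay at 7.7 and 7.0, against 8.1 and 7.1, again -0.25 (SE 0.50, 95% interval -1.83 to 1.33). The groups touched on the first and overlapped on the second. The first stood at 0.075 after quantile normalization and at 0.05 after cyclic loess, and the median of all 641 probe sets at a level of 10 or more was -0.25 itself.

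Among the receptors and sensors, Tlr3 had the largest differences, and its DMSO arrays differed from each other by 1.0 or more. Tlr3, the endosomal receptor for double-stranded RNA, lay at 8.3 and 7.9 in the TCDD arrays, against 8.2 and 9.2 in the DMSO arrays, on its brighter probe set (difference -0.60, SE 0.442). The TCDD values there lay around that of DMSO replicate 1, and the difference was smaller than the gap of 1.0 between the DMSO arrays. It stood at -0.26 after quantile normalization, at -1.10 without DMSO replicate 1 and at -0.10 without DMSO replicate 2. The second Tlr3 probe set lay at 3.9 and 4.5 in the TCDD arrays, against 4.9 and 6.1 in the DMSO arrays, a difference of -1.30 (SE 0.549, 95% interval -3.04 to 0.44). It did not overlap, but it was dim, and without DMSO replicate 2 it stood at -0.70. Ly75, which encodes DEC-205, was dim too, at 4.7 and 4.5 in the TCDD arrays and 4.7 and 4.9 in the DMSO arrays. Xcr1, the chemokine receptor that marks cDC1 most narrowly, was dim as well, at 5.3 and 5.3 in the TCDD arrays and 5.5 and 5.2 in the DMSO arrays. A change of Ly75 or Xcr1 need not show at such levels, and the Xcr1 difference of -0.05 had a 95% interval of -0.48 to 0.38.

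The genes of the surface molecules CD24, CD8 alpha and CD103 lay lower in both TCDD arrays, without overlap, on 4 of their 6 probe sets. Of all probe sets 18.4% did so, with 22.9% at a mean level of 6 to 8 and 38.6% at 8 to 10. Cd24a, which encodes a sialoprotein of the cell surface, lay at 9.2 and 8.9 in the TCDD arrays, against 9.9 and 10.0 in the DMSO arrays, on its brightest probe set. That is a difference of -0.90 (SE 0.143, 95% interval -1.35 to -0.45), or 1.87-fold lower (adjusted p = 0.349). A second Cd24a probe set lay at 7.5 and 7.4 in the TCDD arrays and at 8.3 and 8.2 in the DMSO arrays, a difference of -0.80 (SE 0.0848, 95% interval -1.07 to -0.53), the smallest SE of the 15. Both differences were larger than the spread within either group, which was 0.3 at most. After quantile normalization each of them stood at -0.53, which is over 1.5 times closer to 0. The remaining Cd24a probe set, whose _x_at suffix marks probes that may match other sequences, split the TCDD arrays. It lay at 9.2 and 7.6 in the TCDD arrays, against 8.6 and 8.8 in the DMSO arrays, so that TCDD replicate 1 was the highest of all arrays and TCDD replicate 2 the lowest; without TCDD replicate 1 its difference was -1.10, and with all arrays -0.30.

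Itgae, which encodes CD103, the integrin alpha E chain that with its beta partner binds E-cadherin, had 1 probe set, at 7.5 and 7.3 in the TCDD arrays and 7.8 and 7.9 in the DMSO arrays. The difference was -0.45 (SE 0.11, 95% interval -0.80 to -0.10), and the groups stood apart by 0.3. Cd8a lay at 8.0 and 8.3 in the TCDD arrays, against 8.8 and 8.6 in the DMSO arrays, on its brighter probe set (difference -0.55, SE 0.159, 95% interval -1.05 to -0.05). Its other probe set lay at 6.1 and 6.5 in the TCDD arrays and at 6.6 and 6.4 in the DMSO arrays, and the groups overlapped (difference -0.20, SE 0.192). Quantile normalization brought Itgae to -0.20 and the brighter Cd8a probe set to -0.20.

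CD8 alpha and CD24 are also carried by other spleen cells, as background: CD8 alpha with CD8 beta by T cells, and CD24 by B cells, neutrophils and erythroid precursors. Cd8b1, the CD8 beta gene, was dim, at 4.9 and 4.6 in the TCDD arrays and 4.7 and 4.5 in the DMSO arrays. Of the CD3 chain genes, Cd3e lay at 7.1 and 6.9 in the TCDD arrays and at 7.1 in both DMSO arrays. Cd3d lay at 6.1 and 5.2 in the TCDD arrays, against 5.6 and 5.5 in the DMSO arrays, and Cd3g at 4.5 and 4.8, against 4.4 in both. Of 19 T cell probe sets 14 were dim, and the mean level of the list was 5.35 and 5.12 in the TCDD arrays and 5.23 and 5.17 in the DMSO arrays. The part of T cells in the Cd8a values was not tested. The mean level of 16 B cell probe sets was 5.99 and 5.63 in the TCDD arrays, against 5.95 and 5.92 in the DMSO arrays. Of these 16, 5 lay lower and 4 higher without overlap, beside 18.4% and 19% of all probe sets. Among them Pou2af1 differed by -0.85, Cd79b and Ms4a1 by -0.60 each and Cd79a by 0.45. The mean level of 10 neutrophil probe sets was 7.46 and 6.18 in the TCDD arrays and 6.30 and 5.97 in the DMSO arrays. TCDD replicate 1 was the highest array there, as it was for the _x_at probe set of Cd24a but not for its other 2. In the 12 erythroid probe sets the mean level was 5.43 and 5.53 in the TCDD arrays, against 5.28 and 5.43 in the DMSO arrays. The part of B cells, neutrophils and erythroid cells in the Cd24a values was not tested.

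Naaa gave the largest difference among these genes. It encodes N-acylethanolamine acid amidase, a lysosomal enzyme that breaks down the lipid mediator palmitoylethanolamide. On its first probe set Naaa lay at 8.6 and 9.2 in the TCDD arrays, against 10.4 and 10.3 in the DMSO arrays, a difference of -1.45 (SE 0.255, 95% interval -2.26 to -0.64), or 2.73-fold lower (adjusted p = 0.349). Both TCDD arrays were lower by more than 1 than either DMSO array, which differed from each other by 0.1. The second probe set lay at 9.6 and 8.5 in the TCDD arrays and at 9.8 and 9.8 in the DMSO arrays, a difference of -0.75 (SE 0.451, 95% interval -2.18 to 0.68). It did not overlap either, but TCDD replicate 1 was only 0.2 lower there. After quantile normalization the 2 probe sets stood at -1.09 and -0.39. Macrophages also express Naaa, as background; of 29 macrophage and monocyte probe sets 9 lay lower and 1 higher without overlap, beside 18.4% and 19% of all. The mean level of that list was 7.44 and 7.37 in the TCDD arrays, against 7.81 and 7.74 in the DMSO arrays, with the heme oxygenase gene Hmox1 at -1.10 and the iron exporter gene Slc40a1 at -1.20. The part of macrophages in the Naaa values was not tested.

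**Figure D2:**
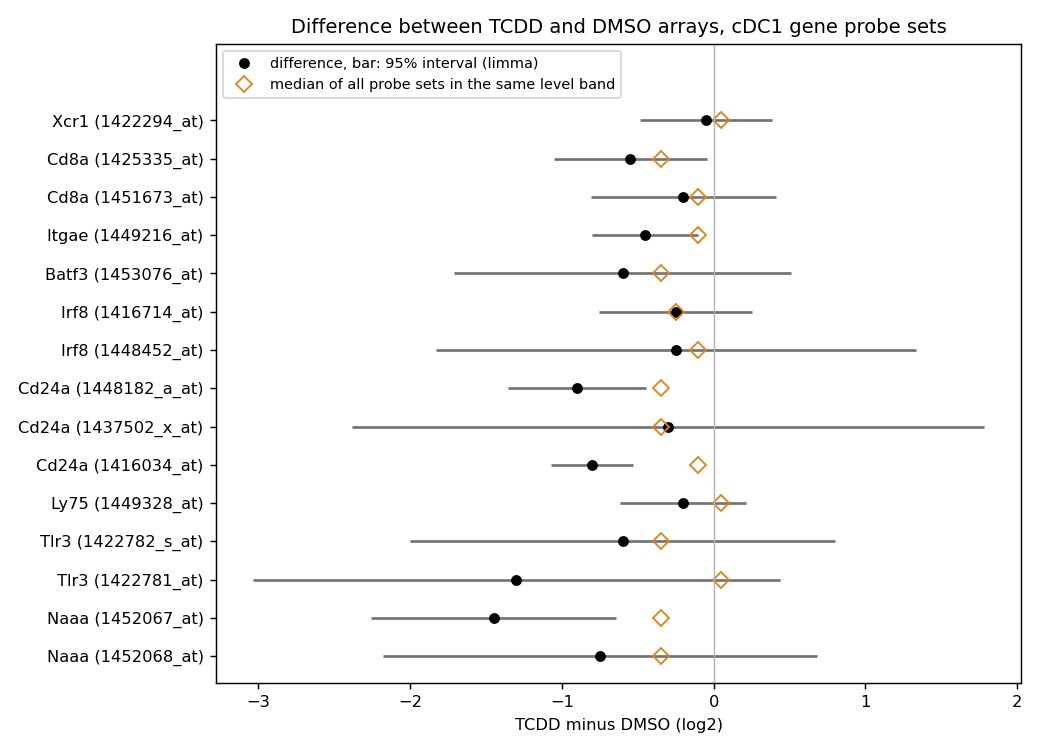
Difference between TCDD and DMSO arrays (log2, horizontal axis) for each cDC1 probe set, with limma's 95% interval as a bar and, as an open diamond, the median of all probe sets in the same band of mean level. All 15 points lie below 0; the intervals of 5 (both Cd24a probe sets other than the _x_at one, the first of Naaa, Itgae and the first of Cd8a) leave out 0, before any adjustment for multiple tests.

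The TCDD arrays differed in how well the probe sets of Naaa, Cd24a and Tlr3 moved together, for Cd24a through 1 probe set. In TCDD replicate 2 the 2 Naaa probe sets lay 1.15 and 1.30 below the DMSO mean, the 3 of Cd24a 0.85 to 1.10 below and the 2 of Tlr3 0.80 and 1.0 below. In TCDD replicate 1 the 2 Naaa probe sets lay 1.75 and 0.20 below, and those of Tlr3 1.60 and 0.40 below. Cd24a there ran from 0.75 below to 0.50 above. The spread between probe sets of 1 gene was thus 1.20 to 1.55 in TCDD replicate 1 but 0.15 to 0.25 in TCDD replicate 2 for these 3 genes. For Cd8a it was 0.30 and 0.40, and for Irf8 0.25 in both arrays. The larger spreads lay in the array with the wider gap between the 3′ and middle control probe sets; the positions of the cDC1 probe sets along their transcripts were not used here, and the part of that gap was not tested.

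Most of the 15 probe sets lay below the DMSO mean in each TCDD array. Both arrays were set against the same DMSO mean, so their directions are not independent. The _x_at probe set of Cd24a and the dimmer one of Irf8 lay above it in TCDD replicate 1. The dimmer Cd8a probe set lay at it in TCDD replicate 2. In TCDD replicate 1, 13 of the 15 lay below the DMSO mean, with a median of -0.40, and in TCDD replicate 2, 14 did, with a median of -0.60. The same medians over all probe sets were 0.05 and -0.10. At a mean level of 8 to 10 they were -0.20 and -0.50 over all and -0.70 and -1.05 over the 7 cDC1 probe sets. At 6 to 8 they were 0.05 and -0.20 over all and -0.375 and -0.575 over the 4. At 10 and over they were -0.05 and -0.35 over all and -0.15 and -0.35 for the 1. How many of all probe sets lay below the DMSO mean was not counted. Without TCDD replicate 1, Batf3 stood at -0.30 in place of -0.60 and the Cd8a probe sets at -0.40 and 0.00 in place of -0.55 and -0.20, while the Naaa probe sets stood at -1.15 and -1.30 in place of -1.45 and -0.75. The second Irf8 probe set then stood at -0.60 in place of -0.25. The brighter Tlr3 probe set stood at -0.80 in place of -0.60 and the dim one at -1.0 in place of -1.30. TCDD replicate 2 was the lower of the TCDD arrays in 9 probe sets, TCDD replicate 1 in 5, and 1 was equal. The TCDD arrays differed from each other by a median of 0.4 over the 15, and the DMSO arrays by 0.2, beside 0.2 in either group over all probe sets. In 6 of the 15 the difference between the groups exceeded the larger of these 2 gaps. This count was not made over all probe sets, so whether 6 of 15 is many is not known.

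**Figure D3:**
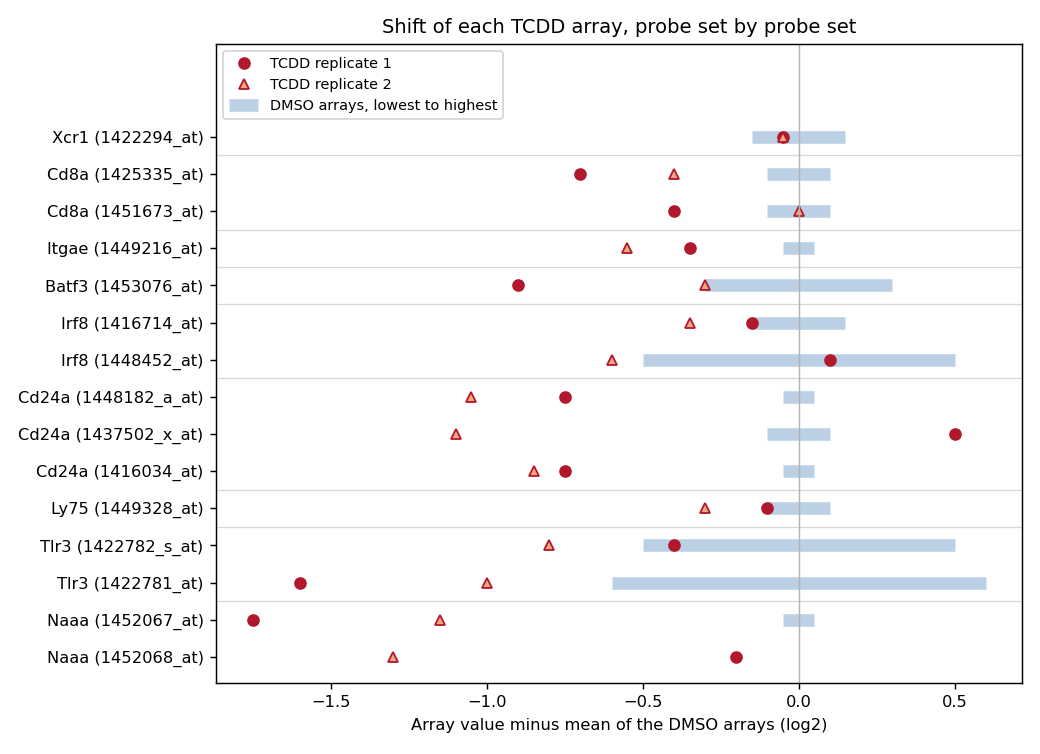
Each TCDD array's value minus the mean of the DMSO arrays (log2, horizontal axis) for the 15 cDC1 probe sets, grouped by gene; blue bars run from the lower to the higher DMSO array, and the second Naaa probe set has none because both DMSO arrays were at 9.8. In TCDD replicate 2 (triangles) the probe sets of Naaa, Cd24a and Tlr3 lie close together, and in TCDD replicate 1 (circles) they spread by 1.20 to 1.55. For Cd24a that spread comes from the _x_at probe set alone, and for Tlr3 it sets a dim probe set against a bright one.

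Further genes linked with cDC1, a list chosen with earlier results of these data known, lay lower more often than higher in the TCDD arrays. Of 24 such genes 17 had a probe set, 31 in all; 15 of the 31 lay lower and 2 higher without overlap, beside 18.4% and 19% of all probe sets, and the median difference was -0.35. At an unadjusted p under 0.05 there were 9, all lower, where 6.7% of all probe sets stood, and limma called 0. At a mean level of 8 to 10, 38.6% of all probe sets lay lower without overlap and 3.7% higher. This list was not split by level. Cadm1, an adhesion molecule by which cDC1 are often sorted, lay at 8.8 and 8.3 in the TCDD arrays, against 9.4 and 9.8 in the DMSO arrays, on the probe set of largest difference (-1.05, SE 0.268). Its other probe sets differed by -0.50, -0.50 and 0.05. Cd36, a scavenger receptor that binds dying cells and lipids, lay at 6.0 and 5.2 in the TCDD arrays, against 7.6 and 7.2 in the DMSO arrays (difference -1.80, SE 0.369); macrophages carry it too. The other Cd36 probe sets differed by -1.55 and, on a dim one that overlapped, by -0.20. Pdia5, a disulphide isomerase of the endoplasmic reticulum, lay at 7.6 and 7.4 in the TCDD arrays and 8.8 and 8.5 in the DMSO arrays (difference -1.15, SE 0.159). The 2 higher ones, looked up after their values were seen, were both dim: Clnk at 0.35 and 1 of 3 probe sets of Plpp1 at 0.15. The other Plpp1 probe sets, not dim, differed by -0.05 and -0.75.

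The regulators of DC development stood near the share of all probe sets on the lower side. Of 41 probe sets for 22 genes 8 lay lower and 5 higher without overlap (18.4% and 19% of all probe sets), with a median of -0.10, and limma called 0. The zinc-finger factor Klf4 lay at 7.4 and 8.2 in the TCDD arrays, against 8.7 and 9.0 in the DMSO arrays (difference -1.05, SE 0.353). Csf2rb, the shared beta chain of the GM-CSF receptor, differed by -0.70 (SE 0.0848), and Zbtb46, a factor of conventional DC, and Tcf4, a factor of plasmacytoid DC, by -0.65 each. At an unadjusted p under 0.05, which 13.1% of all probe sets reached, there were 4. These were Csf2rb, Stat3 at -0.55, a dim Tcf4 probe set at -0.40 and, higher, a dim Mycl probe set at 0.20. The last 3 were named after their values were seen. Genes of cross-presentation gave 17 lower and 6 higher without overlap among 56 probe sets, beside the same 18.4% and 19% of all, a median of -0.25 and 0 calls. The largest differences there were those of Pdia3, of the peptide-loading complex, at -2.30 (SE 1.18) and the small GTPase gene Rab14 at -1.90 (SE 0.614). Cyba, a subunit of the phagosomal oxidase, followed at -1.35 and the immunoproteasome subunit gene Psmb8 at -1.0. In the probe sets of all these 4 genes TCDD replicate 1 was the lowest array, with Pdia3 at 6.0 there but 8.9 in TCDD replicate 2, against 9.8 and 9.7 in the DMSO arrays.

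The other DC lists follow, and their difference from the cDC1 genes was not tested. Each count without overlap is to be read against 18.4% lower and 19% higher among all probe sets. Level matters too, with 22.9% of all lower at 6 to 8 and 38.6% at 8 to 10. In the DMSO arrays the mean level was 8.07 and 8.07 for the cDC1 genes and 9.15 and 8.83 for markers common to DC. It was 7.30 and 7.18 for type 2 conventional DC (cDC2) markers and 6.32 and 6.11 for plasmacytoid DC markers. Of 23 cDC2 probe sets 4 lay lower and 3 higher without overlap, with a median of -0.15. The Notch pathway gene Dtx1 differed by -1.15 (SE 0.179), the inhibitory receptor gene Sirpa by -1.05 (SE 0.159), Klf4 by -1.05 and Ltb, which encodes lymphotoxin beta, by -0.90. Of 23 probe sets of plasmacytoid DC markers 1 lay lower and 5 higher, with a median of 0.05. There the phosphatase gene Ptprs differed by 0.70, Cox6a2 by 0.65 and, the other way, Tcf4 by -0.65. Tcf4 lay at 8.2 and 7.0 in the TCDD arrays, against 8.1 and 8.4 in the DMSO arrays, so its groups overlapped. The chemokine receptor gene Ccr9 lay at 8.5 and 6.0 in the TCDD arrays, against 6.6 and 6.3 in the DMSO arrays, so its difference of 0.80 rests on TCDD replicate 1, and TCDD replicate 2 lay 0.45 below the DMSO mean. Markers common to DC gave 7 lower and 0 higher of 19, with a median of -0.45. The largest of these were 2 probe sets of the MHC class II gene H2-Ab1 at -2.60 and -2.50, 1 of H2-Aa at -1.90 and Cd74 at -1.10, each with TCDD replicate 1 alone below the other 3 arrays. In TCDD replicate 2 these lay below the DMSO mean by 0.60 for both H2-Ab1 probe sets, 0.05 for H2-Aa and 0.25 for Cd74. Of 13 NK cell probe sets 2 lay lower and 0 higher, with Klrd1 at -0.75.

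**Figure D4:**
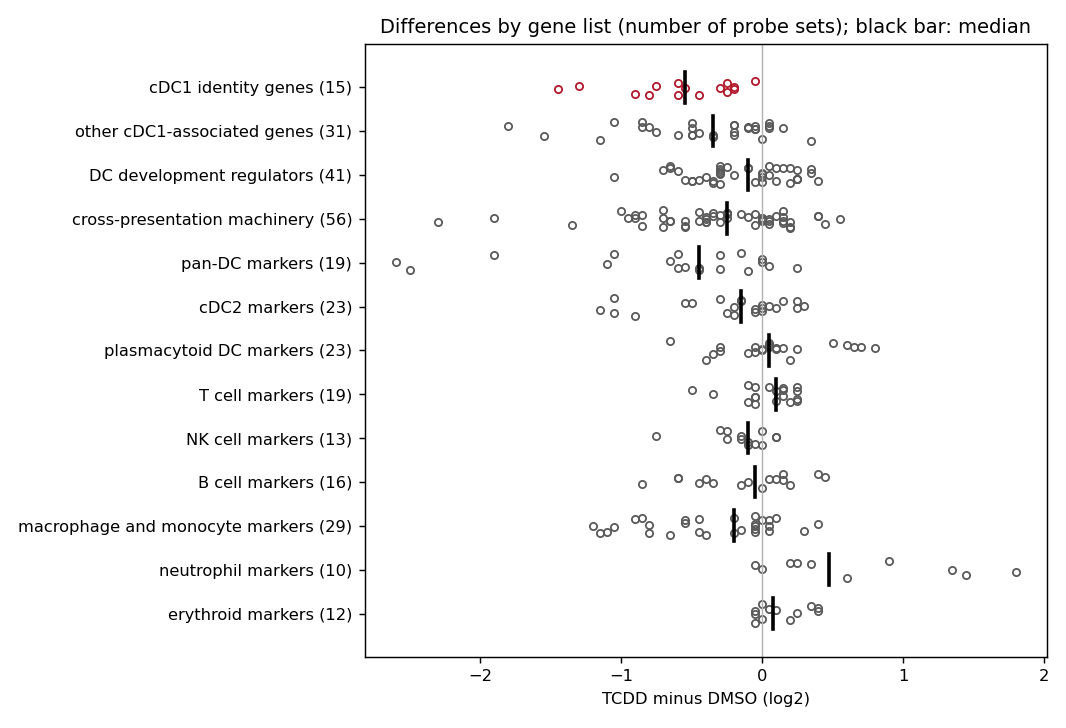
Difference between TCDD and DMSO arrays (log2, horizontal axis) of every probe set in each gene list, with the number of probe sets in brackets and the list median as a black bar; vertical scatter within a list only separates the points. The cDC1 identity genes (red) have a median of -0.55 with all points below 0, and the neutrophil markers have the highest median, 0.475, with a wide spread. The lists differ in mean level, and bright probe sets lay lower in the TCDD arrays in general.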

How the data were processed

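Per the submitters' processing notes the deposited values were made by the authors with RMA, which corrects background, normalizes between arrays by quantiles and summarizes probes; the sources used here name no software or version. The range of the deposited values is that of log2 intensities, and all lie on steps of 0.1. They did not share 1 distribution over the arrays, although RMA normalizes by quantiles. The array median was 6.0 in TCDD replicate 1 and 5.9 in the other arrays. Quantile normalization of the deposited values moved the median cDC1 difference from -0.55 to -0.24. The cause was not tested. The table holds 22690 probe sets; 64 Affymetrix controls were left out, and of the 22626 tested 20380 have 1 gene symbol in the 2016 platform annotation, 691 several and 1555 none.

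TCDD was compared with DMSO in R 4.3.3 by limma 3.58.1 (lmFit, then eBayes, whose prior had 1.03 degrees of freedom), two-sided, with Benjamini-Hochberg adjustment over all 22626 probe sets and a threshold of 0.05; intervals are not adjusted. An exact permutation test of 2 against 2 arrays cannot go below p = 0.333 and was not run. Arrays give no counts, so their number limits the precision. The script was tested on simulated data.

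The cDC1 genes and all other lists were chosen with earlier results of these data known. Every cDC1 probe set is described. From each other list up to 4 probe sets are named by size of difference at or above the 40th percentile of mean level, plus Cd8b1, the CD3 chains, S100a8 and S100a9. Alternatives were 3 normalizations, a filter on dim probe sets, a replicate block, other priors and thresholds, and each array left out.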

Additional observations from a re-analysis of the deposited data

How the results depend on the processing

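Limma called 0 of the probe sets tested, and 0 of the cDC1 probe sets, under all 13 alternatives: quantile normalization, median centring, cyclic loess, removal of dim probe sets, each of the 4 arrays left out, the replicate block, a crossed block, a trended robust prior, no moderation and an adjusted p under 0.10. Replicate 1 minus replicate 2 had a correlation of -0.189 between TCDD and DMSO over all probe sets; the replicate numbers are not known to pair the arrays, and with the replicate block limma called 0. The crossed pairing, added after seeing the data, called 0. The median cDC1 difference of -0.55 moved to -0.24 under quantile normalization and -0.27 under cyclic loess; leaving out arrays singly gave -0.65 to -0.40, with -0.60 when TCDD replicate 1 was dropped. Of the 7 probe sets lower without overlap, 5 kept this under quantile normalization and 6 under cyclic loess. With 1 probe set per gene the count was 4 of 9, fewer by construction. With 1 array left out it ran from 9 to 12, with 12 both without TCDD replicate 1 and without DMSO replicate 2, and that of higher ones from 0 to 1. A lone array separates more easily: the share of all probe sets that lay lower was 45.3% without TCDD replicate 1, 23.7% without TCDD replicate 2, 28.2% without DMSO replicate 1 and 28.4% without DMSO replicate 2. The blocks, the trended prior, no moderation, the 0.10 threshold and the dim filter cannot change a difference in this balanced design. Of 192 recomputed member values, those fixed ones included, 186 kept their direction or stood at 0. The 6 others were the brighter Irf8 probe set at 0.075 under quantile normalization and 0.0533 under cyclic loess, the other Irf8 probe set at 0.10 without TCDD replicate 2 and 0.25 without DMSO replicate 1, Xcr1 at 0.10 without DMSO replicate 1, and the _x_at probe set of Cd24a at 0.50 without TCDD replicate 2. With arrays left out singly these last 3 ran from -0.75 to 0.25, from -0.20 to 0.10 and from -1.10 to 0.50. The cause of these moves was not tested. A lone array is taken to vary as much as those of the other group. Xcr1, Ly75 and a Tlr3 probe set were dim, which limits what they can show.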
